A study of Mus musculus with 45 samples.

Results

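The 3 Sprouty genes Spry1, Spry2 and Spry4 were examined for peaks of Capicua (CIC), a transcriptional repressor, in cerebellar chromatin. A CIC peak was assigned to a gene when its summit, the base with the strongest signal, lay inside the gene body or within 50 kb of either end. By this rule 5 of the 7196 peaks in 3 lists belonged to a Sprouty gene, and all 5 lay at Spry4. Spry4 carried 2 peaks in WT mice, 2 in 154Q mice and 1 in mice whose expanded protein is altered where it meets CIC (154Q[V591A;S602D], hereafter 154Q AXH), and 1 peak of each list sat on its transcription start site. Spry1 and Spry2 carried 0 peaks in every list. Under the same rule 35.8% of 21938 protein-coding genes had a peak in the WT list, 18% in the 154Q list and 11.5% in the 154Q AXH list, so 1 of 3 Sprouty genes is close to what genes in general showed in WT.

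The peaks came from CUT&RUN, a method in which an antibody guides a nuclease to release the DNA under its target protein, on cerebellar nuclei of mice labelled C57BL/6 (C57BL/6J in the study's methods) and aged 10 weeks. WT mice (n = 4) were compared with 154Q mice (n = 4), which carry an expanded polyglutamine Atxn1 allele over a normal 2Q allele as a model of spinocerebellar ataxia type 1, and with 154Q AXH mice (n = 3), in which V591A and S602D were added to that expanded allele in the AXH domain through which ATXN1 contacts CIC. The CIC KO control (n = 4) was Engrailed1-Cre;Cicfl/fl, in which Cre driven from Engrailed1 deletes Cic and which the study describes as lacking Cic across the whole cerebellum. Animals of a genotype were merged by the authors ahead of peak calling, with CIC KO as the common control. In these merged lists each genotype is thus 1 observation, so no spread between animals can be given from them and no difference between genotypes could be tested. The libraries of single animals were not analysed here.

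Sprouty proteins are feedback inhibitors of receptor tyrosine kinase signalling. Growth factor receptors such as the FGF receptors activate RAS, RAF, MEK and ERK, ERK induces Sprouty genes, and the Sprouty proteins then dampen the cascade upstream of ERK. CIC links these steps, since it represses genes of the ERK response until active ERK relieves that repression, and in the brain ATXN1 binds CIC in a stable complex. CIC recognises an octamer read here as TGAATGAA, TGAATGGA, TCAATGAA or TCAATGGA on either strand.

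Spry1 and Spry2 are shown first, because their start sites had no CIC peak although both have the base composition of CpG-rich promoters. Spry1 (ENSMUSG00000037211.12) occupies chr3:37639947-37644598 on the plus strand of GRCm38, and Spry2 (ENSMUSG00000022114.5) occupies chr14:105891947-105896819 on the minus strand. The GC content within 500 bp of the start site was 58.5% at Spry1 and 63.7% at Spry2, and the ratio of observed to expected CpG was 0.981 and 0.839. The 250 bases upstream of each start site, from RefSeq on GRCm38, are printed 5′ to 3′ along the gene's strand, with the CIC octamer in capitals.
Spry1: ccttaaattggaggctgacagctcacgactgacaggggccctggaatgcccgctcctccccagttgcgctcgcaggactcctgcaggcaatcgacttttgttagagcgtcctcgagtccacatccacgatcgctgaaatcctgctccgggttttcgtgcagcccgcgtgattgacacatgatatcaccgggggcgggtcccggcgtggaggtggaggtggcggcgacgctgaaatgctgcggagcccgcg
Spry2: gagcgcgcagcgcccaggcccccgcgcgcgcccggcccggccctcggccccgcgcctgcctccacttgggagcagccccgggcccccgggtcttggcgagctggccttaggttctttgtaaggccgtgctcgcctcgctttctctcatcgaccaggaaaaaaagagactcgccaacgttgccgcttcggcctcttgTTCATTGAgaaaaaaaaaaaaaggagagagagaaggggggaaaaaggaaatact

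The Spry2 sequence held 1 octamer, 54 to 47 bp upstream of the start site, which is TCAATGAA on the opposite strand and reads TTCATTGA on the gene's own. The Spry1 sequence held none, and none lay within 1 kb of its start site. An octamer between 250 bp upstream and 50 bp downstream was uncommon, with 744 of 21938 protein-coding start sites (3.39%) holding one. In the full windows of 50 kb the counts were 17 at Spry1, 28 at Spry2 and 26 at Spry4, so all 3 windows held octamers. Overlapping matches in tandem repeats were counted separately, and no expected count is given here.

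The nearest peak to each of these genes lay outside even a window of 100 kb. At Spry1 the nearest summit was 220 kb from the gene in WT and again 220 kb in 154Q, at the start of Spata5, and 840 kb in 154Q AXH. At Spry2 it was 2419 kb away in WT and in 154Q, in an intron of the non-coding gene Gm34907, and 4251 kb in 154Q AXH. These neighbouring genes were named after their distances were seen. The median over all protein-coding genes was 121 kb in WT, 398 kb in 154Q and 737 kb in 154Q AXH. Spry1 was thus not unusual, with 38.5%, 61.7% and 47.0% of genes lying farther from a peak in the 3 lists. Spry2 was remote, with 3.82%, 11.0% and 10.0% of genes lying farther.

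Lack of a peak within 50 kb was thus common among protein-coding genes. A summit within 1 kb of an annotated transcript start was rarer, at 11.7% of genes for WT, 4.88% for 154Q and 2.82% for 154Q AXH, and Spry4 met that stricter criterion in all 3 lists. The lists show binding at Spry1 and Spry2 only above the calling limit. At the genome-wide background a peak needed 19 fragments in WT and 18 in 154Q AXH, which corresponds to fold enrichments of 2.64 and 3.03, and weaker binding would not have been detectable.

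**Figure D1:**
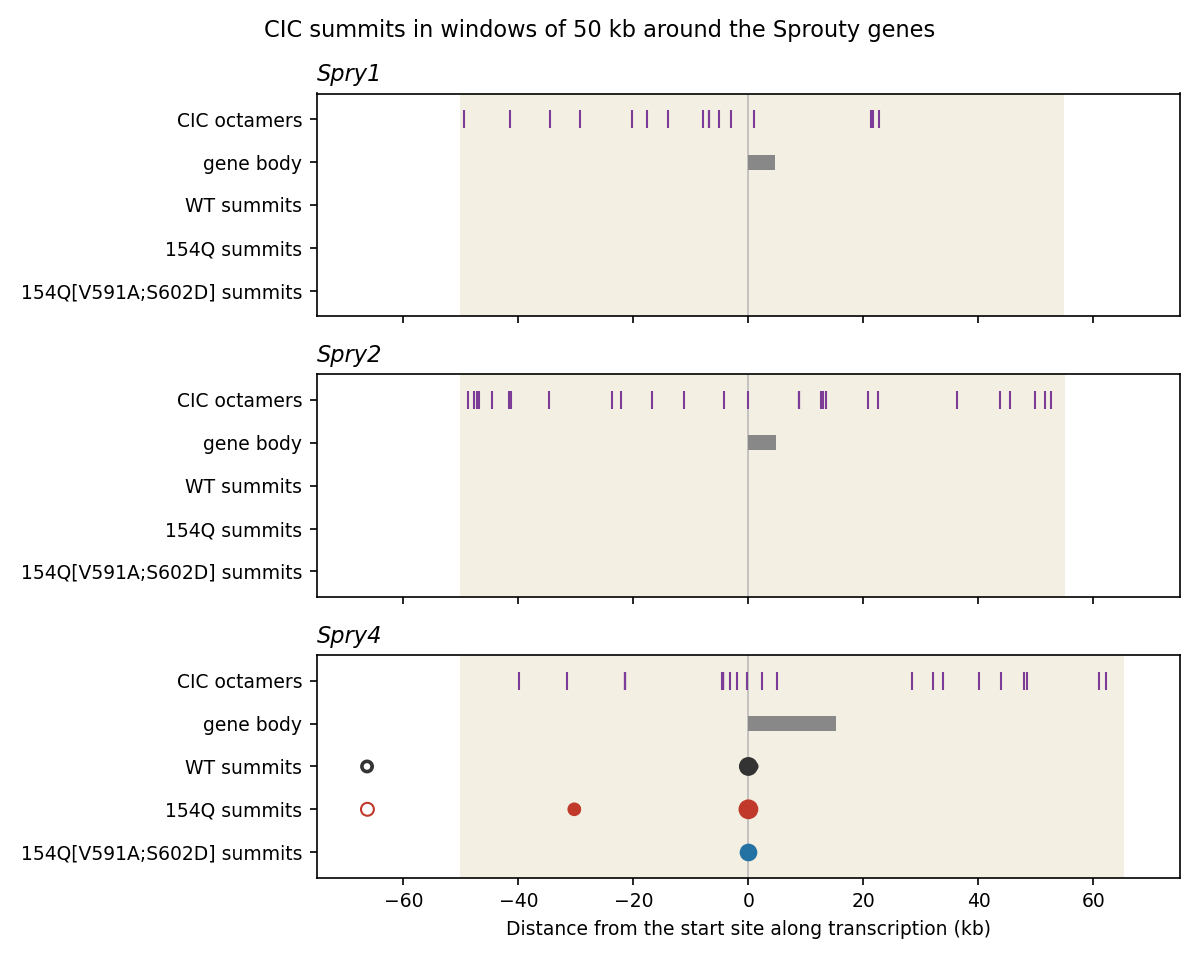
CIC summits (filled circles, area growing with −log10 q; open circles lie outside the 50 kb limit), octamers (ticks) and gene bodies (grey bars) are plotted by distance from each start site in kb, with the searched window shaded. Octamers are spread over all 3 windows, whereas summits appear at Spry4 alone, with 1 at its start site in each list.

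Spry4 (ENSMUSG00000024427.7) occupies chr18:38586247-38601415 on the minus strand and is, at 15169 bp, longer than Spry1 (4652 bp) and Spry2 (4873 bp). Its start site has a GC content of 60.9% within 500 bp, between the values of the other two. The ratio of observed to expected CpG there is 0.795, below both of theirs. No other protein-coding gene reaches into any of the 3 windows. The lincRNA AC133601.1 starts divergently at position 38601534, within both called intervals of the Spry4 promoter peak. The promoter summits of all 3 lists lay nearer to the Spry4 start site, within 3 bp of it. Because the intervals cover both start sites, position alone does not show which gene the bound CIC acts on. The RefSeq start of Spry4 lies 68 bp from the GENCODE start used here.

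The promoter peak of Spry4 was among the 10 highest-ranked peaks of every list by −log10 q, though not by fold enrichment in WT or 154Q AXH. The study had already named Spry4 among its 10 most significant peaks. In WT it spanned chr18:38601161-38601722 (562 bp) with the summit at 38601418, 3 bp upstream of the start site. In 154Q the summit was at 38601413, 2 bp downstream, and in 154Q AXH the interval was chr18:38601162-38601596 (435 bp) with the summit at 38601415, on the start site itself. The summits therefore differed by 5 bp between WT and 154Q, by 3 bp between WT and 154Q AXH and by 2 bp between the lists of both expanded alleles. The interval of 154Q AXH lay wholly inside that of WT and covered 77.4% of it. Their downstream edges were 1 bp apart, and the upstream edges 126 bp apart.

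**Figure D2:**
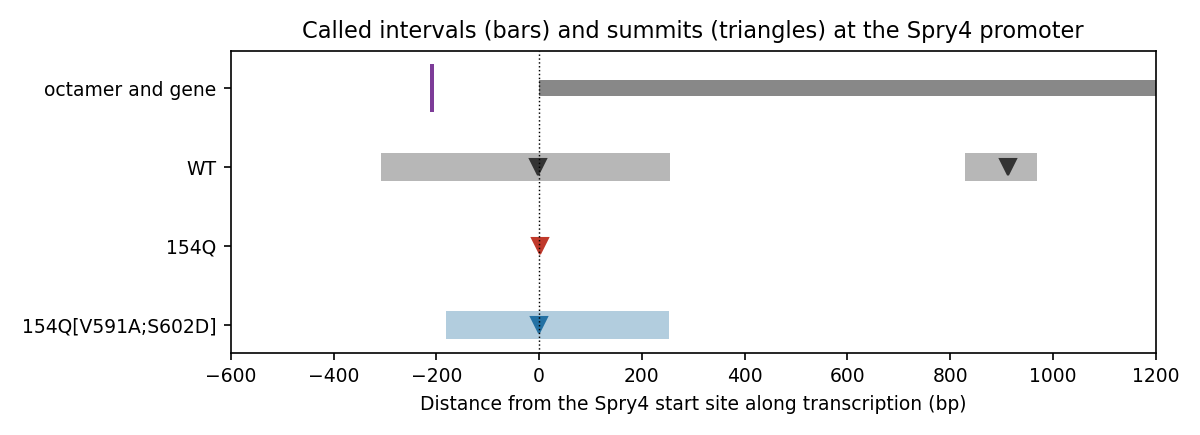
Called intervals (bars) and summits (triangles) of the peaks near the Spry4 start site are plotted by distance in bp along transcription, with the octamer in purple and the gene in grey; the 154Q list gives summits without intervals. The 3 promoter summits lie within 5 bp of each other, and the octamer lies inside the WT interval and outside the 154Q AXH interval.

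Within its list the promoter peak ranked 8 of 4588 in WT, 2 of 1690 in 154Q and 9 of 918 in 154Q AXH, by −log10 q. These correspond to the top 0.174%, 0.118% and 0.980% of the lists. The −log10 q values were 303.2, 674.0 and 122.9, and they are not comparable across lists because they grow with depth. Only the 154Q list had been through the authors' repeat filter before deposition, and 35 of its peaks were still over 50% soft-masked within 50 bp of the summit. Of the 7 WT peaks above Spry4, 4 had over 50% of their bases in soft-masked repeats, as did 7 of the 8 peaks above it in 154Q AXH. With such peaks left out Spry4 ranked 4 for WT and 2 for 154Q AXH, and its rank of 2 for 154Q was the same with or without them. Etv5, an ERK-responsive PEA3 transcription factor gene, then ranked 1 in both WT and 154Q AXH.

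**Figure D3:**
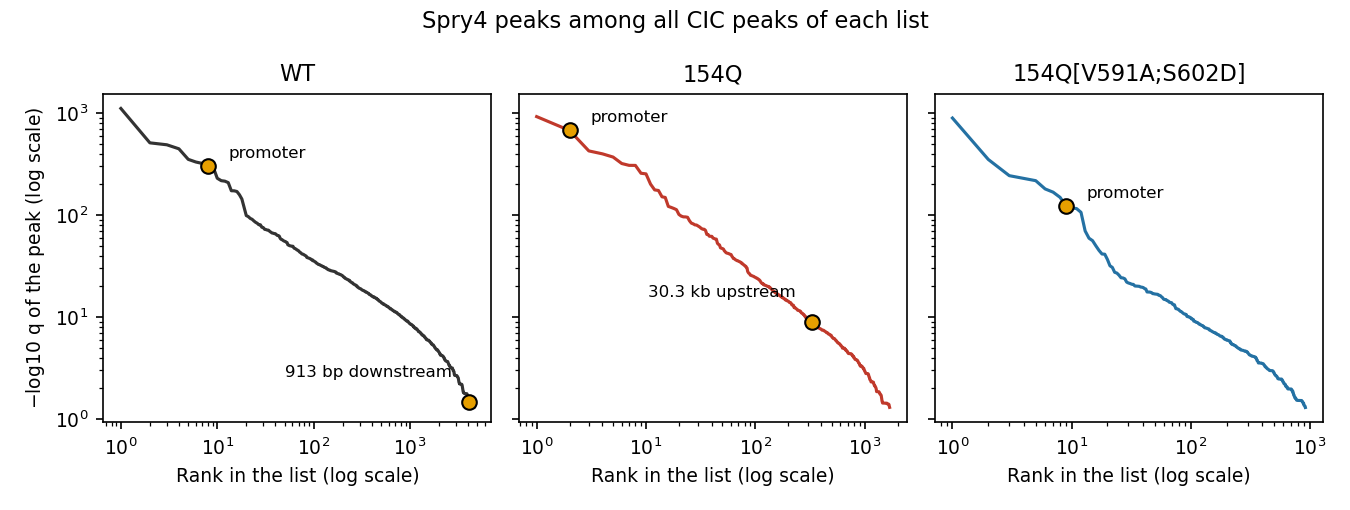
The −log10 q of every CIC peak is plotted against its rank in the list, both on log scales, for WT, 154Q and 154Q AXH, with the Spry4 peaks as orange circles. The promoter peak sits at rank 8, 2 and 9, the second WT peak sits near the end of its curve at rank 4046, and the second 154Q peak sits at rank 330. The panel headed 154Q[V591A;S602D] is 154Q AXH.

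The signal behind the promoter peak could be recovered as whole fragments in the WT and 154Q AXH lists, which give both a fold enrichment and a −log10 p. In WT the merged libraries piled up 700 fragments at the Spry4 summit (exact Poisson 95% interval 649 to 754), against 110 expected from CIC KO. In 154Q AXH the pileup was 418 fragments (379 to 460) against 96.7 expected. These intervals cover counting error only, not variation between animals. The deposited fold enrichments were 6.32 and 4.29. The CIC KO background itself was high here, 16.7 times the genome-wide value of 6.59 fragments in WT and 18.3 times that of 5.28 in 154Q AXH, and 1.05% and 1.31% of peaks had a higher one. Its part in the enrichment was not tested. Ranked by fold enrichment rather than by −log10 q, Spry4 stood at 95 in WT and 65 in 154Q AXH.

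The pileup over background was 6.37 in WT (5.90 to 6.85) and 4.32 in 154Q AXH (3.92 to 4.76), a ratio of 1.47 between the genotypes (1.303 to 1.667, counting error of the pileups only). Across the 632 peaks present in both lists the median ratio was 1.21, and 70.7% of them had a lower ratio than Spry4. Among the 26 unmasked peaks with at least 100 fragments in both lists the median was 1.46 and 53.8% had a lower ratio, so Spry4 was near the middle of the strong peaks. After scaling to the genome-wide background, the pileup ratio was 1.34 (1.19 to 1.52), against a median of 1.29 over all 632 peaks and of 1.38 over the 26 strong ones, of which 46.2% had a lower ratio. Library depth and genotype cannot be told apart in these values, and 154Q could not be included because its list holds no fold enrichment. The study scaled its CIC signal to an E. coli spike-in, which these ratios do not use. On that scale it reports genome-wide CIC binding in 154Q AXH at WT levels or slightly below.

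**Figure D4:**
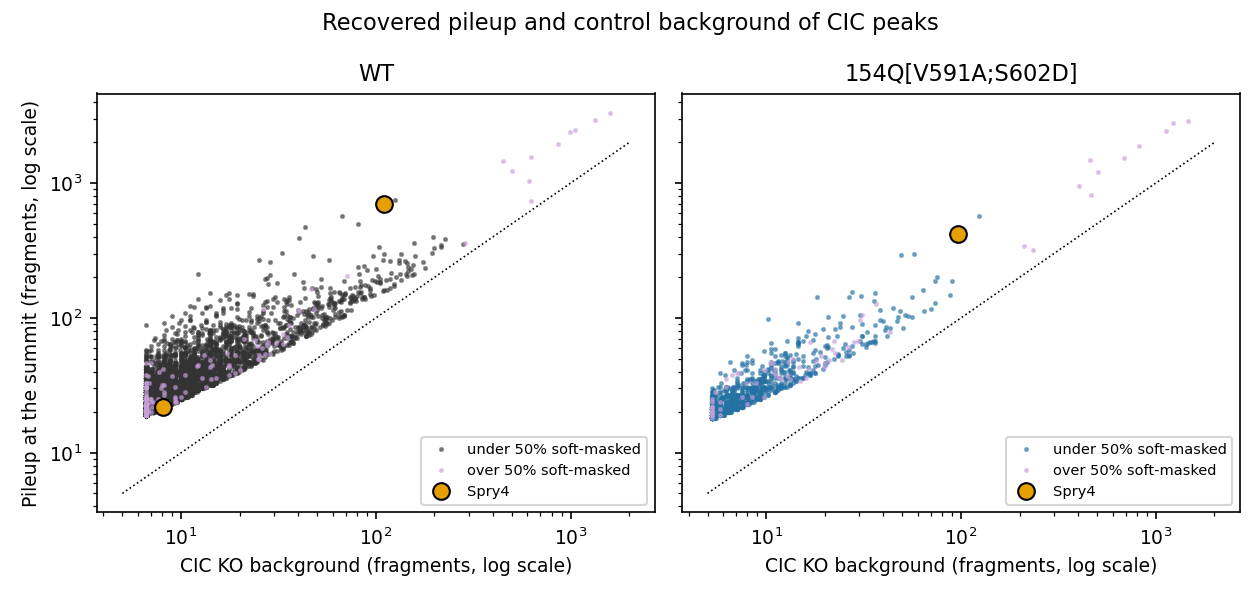
The recovered pileup at the summit is plotted against the CIC KO background of the same peak, in fragments on log scales, with 1 point per peak and Spry4 in orange; the dotted line marks equality. The Spry4 promoter lies at 700 over 110 fragments in WT and at 418 over 96.7 in 154Q AXH, above most unmasked peaks.

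The remaining 2 Spry4 peaks were each found in a single list, with no summit of another list within 500 bp. So were 69.5% of all WT peaks and 29.1% of all 154Q peaks, beside 22.4% in 154Q AXH. WT alone had a summit 913 bp downstream of the start site, at position 38600502 in an intron, with 22 fragments (13.8 to 33.3) against 8.11 expected. That peak ranked 4046 of 4588 with a −log10 q of 1.48, close to the calling limit, and was lost at a q of 0.01. A peak in 154Q alone had summits at 38631493 and 38631688, 30078 and 30273 bp upstream of Spry4 in an intron of AC133601.1, with −log10 q values of 2.80 and 8.89 and a rank of 330 of 1690. It lay in the top 19.5% of its list, whose median −log10 q was 3.81, and was kept at a q of 0.001. Just outside the limit of 50 kb, WT had a summit 66.3 kb upstream (rank 816, −log10 q 10.1) and 154Q one 66.2 kb upstream (rank 139, −log10 q 19.1), about 9 kb from the start of Arhgap26, while 154Q AXH had none there. Whether these presences and absences differ between genotypes could not be tested from merged lists.

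The Spry4 promoter peak was not centred on a CIC octamer. The only octamer within 1 kb of the start site, TGAATGGA on the opposite strand, lay 213 to 206 bp upstream. It was 203 bp from the WT summit, 208 bp from the 154Q summit and 206 bp from the 154Q AXH summit. None of the 5 Spry4 peaks had an octamer within 100 bp of its summit. Within 50 bp, octamers were found at 2.33% of all WT peaks, 6.57% of 154Q peaks and 3.38% of 154Q AXH peaks, so their lack at Spry4 was shared by most peaks. The share for windows of this size outside peaks was not measured. Only exact octamers were searched, and not the longer enriched CIC motif that the study derived de novo from its peaks. Spry2 and Spry4 each held 1 octamer between 250 bp upstream and 50 bp downstream of the start site, and only Spry4 had a peak. Over all protein-coding genes, the octamer was scored at 1 start site per gene, and the summit within 1 kb of any annotated transcript start. By these criteria 9.68% of genes with an octamer and 11.8% of those without had a WT summit. The shares were 6.59% and 4.82% in 154Q and both 2.82% in 154Q AXH. A summit at an alternative start site is therefore counted too.

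Spry4 was next set beside other genes of the ERK pathway. Etv4, Etv5, Spred1 and Spry4 itself are shown by the study as CIC targets in these libraries, so their peaks are no independent evidence about the pathway. The list held 36 further genes, of which 35 were annotated; Spry3 was not analysed here. A peak was found at 21 of the 35 (60%) in WT, 20 (57.1%) in 154Q and 9 (25.7%) in 154Q AXH, beside 35.8%, 18% and 11.5% of all protein-coding genes. Gene length was not matched in this comparison. Within 1 kb of an annotated transcript start the counts were 12, 12 and 7 of the 35, beside 11.7%, 4.88% and 2.82% of all protein-coding genes. Among 11 negative regulators of the pathway, which act at different steps of it, 9 had a peak in WT, 7 in 154Q and 5 in 154Q AXH. All 3 PEA3 factors, Etv1, Etv4 and Etv5, had one in every list. Receptors and adaptors had a peak at 6, 7 and 1 of 11 genes, and RAS genes and kinases at 3, 3 and 0 of 10. Of the 35 genes, 8 had a peak in each of the 3 lists and 11 had none in any, whereas 8.25% of all protein-coding genes had a peak in each list and 61.7% had none in any.

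Spred1 and Dusp4 came closest to Spry4 among the 11 negative regulators, below it in every list, and Il17rd alone of the 11, like Spry1 and Spry2, had no peak in any list. Spred1, whose product restrains RAS signalling, had its best peak at ranks 15, 7 and 15 in WT, 154Q and 154Q AXH. The best peak at Spred2, which encodes a related protein, ranked 91, 14 and 64. Dusp4, a phosphatase that inactivates ERK in the nucleus, stood at ranks 19, 8 and 22, and Dusp5, another nuclear ERK phosphatase, at 314, 69 and 89. With the same peaks left out, Dusp4 stood at 11, 8 and 13. Dusp6, a cytoplasmic ERK phosphatase, had a peak at rank 3232 in WT and 176 in 154Q, and none in 154Q AXH. The RAS GTPase-activating gene Nf1 had one at rank 87 in 154Q alone. Errfi1, an inhibitor of the EGF receptor, had one at rank 2805 and Rasa1, another RAS GTPase-activating gene, one at rank 641, both in WT alone. Cbl, a ubiquitin ligase for activated receptors, had one at rank 2531 in WT and 655 in 154Q AXH but none in 154Q, and Spred3 had one at rank 2055 in WT and 265 in 154Q but none in 154Q AXH. Il17rd encodes a membrane inhibitor of FGF signalling.

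**Figure D5:**
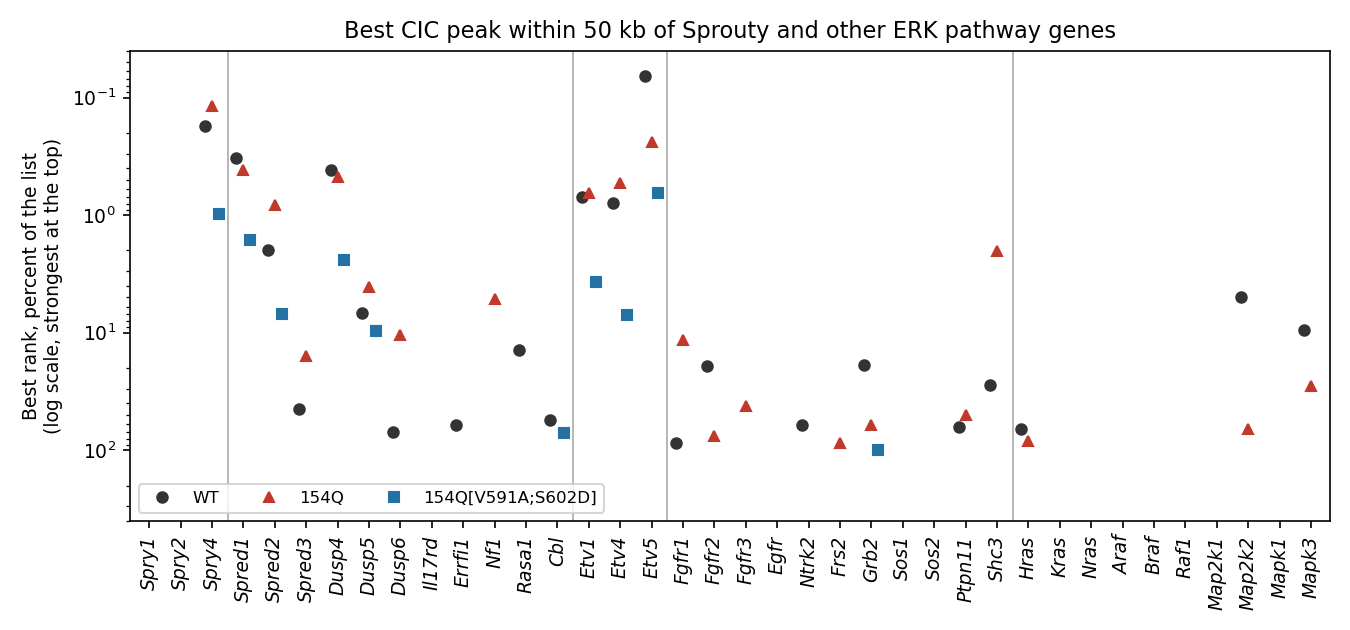
The best rank of any peak within 50 kb, as a percent of the list (log scale, strongest at the top), is plotted for the Sprouty genes and the 35 other ERK pathway genes in WT, 154Q and 154Q AXH; a gene without a symbol had no peak. Spry4, Spred1, Dusp4 and Etv5 occupy the top, and Spry1 and Spry2 are empty; the Fgfr2 peaks lie far downstream of its start site in an unusually long annotated gene body.

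Across all 519 protein-coding genes with a peak in the gene body or up to 5 kb upstream in each of the 3 lists, 5 were closest to Spry4 in rank, by the summed absolute difference in log2 rank. Hsd17b12, a fatty acid elongation and steroid enzyme gene, was nearest with ranks 5, 3 and 12 and a distance of 1.68. Clstn2, which encodes a synaptic calsyntenin, followed with ranks 10, 6 and 17 (2.82). Etv5 had ranks 3, 4 and 6 (distance 3) and Spred1 had a distance of 3.45. Gm47283 on chromosome Y was the last at 4.53. The measure rests on 3 lists that share the CIC KO control.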

How the data were processed

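CUT&RUN libraries were made from 45 samples, that is 15 animals by 3 antibodies (CIC, H3K27ac and IgG), and the 30 libraries of the other antibodies were not used here. Per the labels and the study's methods, the authors trimmed reads with Trimmomatic 0.36, aligned them with Bowtie2 2.3.4.1 to mm10 (GRCm38), kept CIC fragments under 120 bp, merged replicates and called peaks with MACS3 at q 0.05 against merged CIC KO. In the deposited lists of WT and 154Q AXH each line holds an interval, a summit, a MACS score (not used), the fold enrichment ratio, −log10 p-value and −log10 q-value; the deposited 154Q list gives summits and −log10 q alone, after removal of repeat peaks by the authors.

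Lines were collapsed to 4588 WT, 1690 154Q and 918 154Q AXH peaks on chromosomes 1 to 19, X and Y, ranked by −log10 q. The totals of fragments per library are not in the sources used here. Genes were GENCODE M21 basic, and sequence came from GRCm38.p6. A whole pileup was solved from fold and −log10 p for 99.8% of peaks in both lists; the procedure was tested on simulated data. Shares over genes are descriptions with no test. Named genes were the members, genes nearest their peaks, a list of ERK pathway genes, and the 5 genes with the most similar ranks. The members and lists were chosen with earlier results of these data known. Alternatives covered windows, q thresholds, repeat filters, ranking and gene sets. Python 3.11.15, pandas 2.3.3, SciPy 1.17.1 and pysam 0.24.0 were used.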

Additional observations from a re-analysis of the deposited data

How the results depend on the processing

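No paired analysis was possible because replicates were merged before peak calling, and for the same reason no animal could be left out. Under the alternatives, 122 recomputed values stayed within 1.5 times the reported count or rank, or within the 95% interval of a share or pileup or at the same summit shift, and 33 did not, of which 3 only restate a rank as a percent. Spry1 and Spry2 had 0 peaks under every alternative run, a window of 100 kb included. The Spry4 count fell to 1 peak in WT at q 0.01, at q 0.001 and with equal list lengths, and to 1 in 154Q with windows of 5 or 10 kb. The Spry4 promoter rank moved to 4 in WT and 2 in 154Q AXH with the repeat filter, to 95 and 65 by fold enrichment, and to 138 and 133 by pileup over background, a setting added after seeing the data. As a percent of the list it was 0.174 for WT, 0.118 for 154Q and 0.980 for 154Q AXH. Counting octamers anywhere in the called interval, also added later, gave 1 of 2 Spry4 peaks with an octamer in WT and 0 of 1 in 154Q AXH, beside 4.97% and 6.54% of all peaks in these lists. The share of protein-coding genes with a peak in WT was 18.3%, 21.1% and 46.6% with windows of 5, 10 and 100 kb, 31.1% at q 0.01, 27.3% at q 0.001 and 24.1% over all annotated genes. For 154Q these were 7.95%, 9.42%, 25.4%, 14.6%, 12.2% and 11.7%, and for 154Q AXH 4.46%, 5.44%, 17.3%, 8.12%, 6.12% and 7.38%. The genome-wide background was 6.59 fragments in WT and 5.28 in 154Q AXH, and the part of depth in the list lengths was not tested.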
